A study of Danio rerio with 6 samples.

Results

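In testes of zebrafish exposed to polystyrene nanoplastics, 85 of 32520 genes were present in all 3 exposed libraries and near absent in all 3 control libraries. A gene was taken when it had above 1 count per 1000000 counts (CPM) in each exposed library and under 0.3 CPM in each control library. Both thresholds were passed by 90 genes (0.277% of the table). Of these, 5 were left out because symbols for keratins, claudins, collagens and zona pellucida proteins, and cd44a, were set aside by name: zp3a.1, zp3.2, COL10A1, cldnf and cldn8.2. The genes were chosen by their exposed and control values, so every difference between the groups is given below as a description, with no test. Each library had to pass, so leaving 1 out can only keep or raise the number of genes. It was 120, 112 and 174 without exposed 2-2, 3-1 and 3-3. Without control 1-2, 2-2 and 3-1 it was 150, 148 and 135.

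The study sequenced poly(A)-enriched RNA from the testes of 6 adult wild-type zebrafish (Danio rerio), 1 animal per library. The 3 exposed fish spent 96 h in water that received polystyrene nanoplastics, very small particles of a common plastic, every 24 h. The 3 control fish were kept in water with no added plastic. Libraries carry the replicate and animal numbers of their labels, which gives exposed 2-2, 3-1 and 3-3, and control 1-2, 2-2 and 3-1. The sources used here do not give the age of the fish, the size and dose of the particles, or what a replicate number marks.

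The testis makes sperm from germ cells, which are held and fed by Sertoli cells and supplied with androgens by Leydig cells. For some of the genes a role in other organs is known. ZNF750 and TMPRSS13 act in the differentiation and barrier of mammalian skin, FABP6 carries bile acids in the cells of the intestine, and mammalian OXGR1 is a receptor for alpha-ketoglutarate that is best known from the kidney. In bulk tissue, fewer cells of a type and less RNA per cell cannot be told apart.

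Column totals ran from 96029888 to 108273937 counts in exposed libraries and from 76205591 to 86765952 counts in controls. At these depths 1 CPM is 96.0 to 108 counts in an exposed library, 0.3 CPM is 22.9 to 26.0 counts in a control, and 3 counts are between 0.0277 and 0.0394 CPM. Germ cell markers, among them DDX4 and SYCP1, and markers of Sertoli and Leydig cells, among them amh and STAR, were present in all 6 libraries, so the labelled tissue carried its markers. Of the 10 germ cell markers only TSSK6 was at 0 in every library. Across the whole table, the quasi-likelihood test of edgeR called 0 of 26108 genes after Benjamini-Hochberg adjustment at 0.05 (0.0%). At an unadjusted p under 0.05, 2526 genes were higher in exposed testes (9.68%) and 1772 were lower (6.79%). At an adjusted p under 0.05, DESeq2 called 1405 of 26274 genes higher (5.35%) and 351 lower. Without exposed 3-3, edgeR called 396 genes, and without exposed 2-2 it called 1.

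The 85 genes summed to 1033, 500.1 and 307 CPM in exposed 2-2, 3-1 and 3-3, against 6.41, 5.13 and 1.83 CPM in control 1-2, 2-2 and 3-1. They took 0.103%, 0.05001% and 0.0307% of the counts of exposed 2-2, 3-1 and 3-3. The sum in exposed 2-2 was the largest of the 6, and the groups did not overlap, as the choice of the genes requires. Per gene, the median level was 6.33, 3.58 and 1.77 CPM in the same order of exposed libraries. In controls the median was 0 in each library. No gene had fewer than 102 counts in an exposed library, and the sums over the 3 exposed libraries ran from 374 to 9217 counts. In controls, 21 genes had no count in any library, 9 had 1 to 3 counts in all and 55 had more, up to 46. Control 3-1 was the emptiest, with 70 of the genes at 0, against 45 in control 1-2 and 43 in control 2-2. All 85 genes passed the filter on low counts, which they did through the exposed group.

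The 3 exposed testes did not share these transcripts evenly. Exposed 2-2 was the highest library for 53 genes (62.4%), exposed 3-1 for 14 (16.5%) and exposed 3-3 for 18 (21.2%). Among all 19035 genes above 1 CPM in every exposed library, the shares were 30.6%, 23.2% and 46.1%. The selection set only a minimum in exposed libraries and did not use their order. Exposed 3-3 was the lowest exposed library for 56 genes, exposed 3-1 for 21 and exposed 2-2 for 8, and 45 genes fell in the order 2-2, 3-1, 3-3 from high to low. The shares of all genes for the lowest library and for this order were not taken. The median ratio of exposed 2-2 to exposed 3-3 was 3.26, with a range from 0.181 to 57.6, against 0.891 over the 19035 genes. For 34 genes this ratio was over 5, and for 21 it was under 1. With 1 library per animal these orders have no replicate check.

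**Figure D1:**
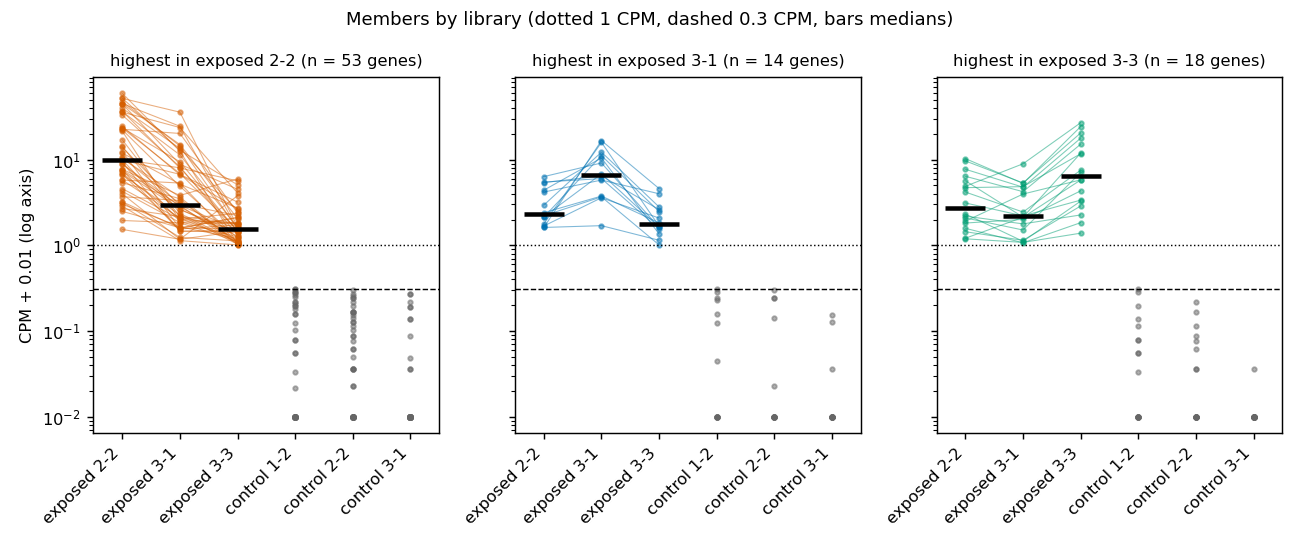
Level of each of the 85 genes in each library, as CPM + 0.01 on a log axis, in 3 panels by the exposed library in which the gene was highest; coloured points joined by lines are exposed libraries, grey points are controls, thick bars are medians of the exposed libraries, and dotted and dashed lines are the thresholds of 1 and 0.3 CPM. In the panel of 53 genes the lines descend toward exposed 3-3 (medians 9.95, 2.92 and 1.52 CPM), and in the panel of 18 genes they climb toward it (medians 2.71, 2.16 and 6.43 CPM).

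Of the 85 genes, 29 had a symbol of a characterised gene, 43 had a symbol made from a clone or a provisional name, and 13 had no symbol. Exposed 2-2 was highest for 21 of the 29 characterised genes, exposed 3-1 for 6 and exposed 3-3 for 2. Among the other 56 genes the numbers were 32, 8 and 16. The characterised genes fell into 5 groups by known role: receptors, channels and other membrane proteins (8), transcription factors and a Wnt ligand (4), proteases, lectins and glycosylation (5), immune genes (6), and metabolism and intracellular proteins (6). Grouping was done by the known role of each symbol, with the values in view. The median ratio of exposed 2-2 to exposed 3-3 was 8.11, 6.88 and 8.01 in the first 3 groups, against 1.63 in immune genes and 2.13 in metabolism and intracellular proteins. It was 2.52 for clone-based or provisional symbols and 1.05 for genes with no symbol.

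Among the receptors, channels and membrane proteins, 7 of 8 were highest in exposed 2-2, 1 in exposed 3-1 and none in exposed 3-3. OXGR1 (ENSDARG00000033684), the alpha-ketoglutarate receptor, had the highest mean of all 85 genes, at 51.8, 35.8 and 1.64 CPM in exposed 2-2, 3-1 and 3-3, against 0 counts in each control. Its mean of 29.7 ± 25.6 CPM (SD, n = 3) in exposed testes was at least 790.7-fold higher than 3 counts in each control library, the floor used for every such bound. Exposed 2-2 and 3-1 carried nearly all of it, and exposed 3-3 lay just above the threshold. SLITRK6 (ENSDARG00000098769), a leucine-rich repeat membrane protein of neurons and the inner ear in mammals, had 22.6, 20.2 and 2.39 CPM in exposed 2-2, 3-1 and 3-3, against 0.254, 0.210 and 0 CPM in control 1-2, 2-2 and 3-1. It too was low in exposed 3-3 only.

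Both ms4a17a genes belong to the MS4A family of proteins that cross the membrane repeatedly. The level of ms4a17a.12 was 23.3, 6.88 and 1.49 CPM in exposed 2-2, 3-1 and 3-3, against 2 counts over the 3 controls. The ratio, adjusted for the totals, was 1302 (95% exact interval 360 to 10753, counting error only). Such an interval takes each count as independent, and how mates were counted is not given, so it may be too narrow. It pools the counts of each group and leaves out the spread among animals. The choice of the gene already sets exposed above control, so the interval is no test of a difference. The level of ms4a17a.2 was 22.3, 4.87 and 1.20 CPM, against 2 counts over the 3 controls. Both genes were highest in exposed 2-2 and lowest in exposed 3-3. The connexin gjb9a, a subunit of gap junctions, was at 10.01, 8.02 and 1.48 CPM in exposed 2-2, 3-1 and 3-3, against 0, 0.157 and 0.208 CPM in the controls. The small membrane protein gene smim24 was at 7.69, 3.81 and 5.95 CPM in exposed libraries, against 0 counts in each control (at least 154.665-fold higher). Its ratio of exposed 2-2 to exposed 3-3, 1.29, was the smallest of this group. The lipid receptor S1PR5 and xkr8.1, of the family of the mammalian scramblase XKR8, complete the group and were named after their values were seen. S1PR5 was the only receptor highest in exposed 3-1, at 5.47, 5.998 and 1.54 CPM in exposed 2-2, 3-1 and 3-3, against 0.277, 0.289 and 0 CPM in the controls. The values of xkr8.1 were 5.79, 2.06 and 1.11 CPM in exposed libraries, against 2 counts over the controls.

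All 4 genes of the group of transcription factors and a Wnt ligand were highest in exposed 2-2, second in exposed 3-1 and lowest in exposed 3-3. The DNA-binding protein gene arid6, of the ARID family, had 35.8, 23.7 and 4.07 CPM in exposed 2-2, 3-1 and 3-3, against 3 counts over the controls. The ratio, adjusted for the totals, was 1708 (95% exact interval 584 to 8284, counting error only). The zinc finger gene znf750, whose human counterpart drives the late differentiation of keratinocytes, had 23.4, 9.43 and 1.43 CPM in exposed libraries, against 0.0922, 0 and 0.182 CPM in control 1-2, 2-2 and 3-1. Its exposed values spanned a wide range, yet the lowest was still above every control by the choice of the gene. WNT9B, a secreted signal that acts in the kidney and face of mouse embryos, had 11.9, 5.18 and 2.71 CPM in exposed libraries, against 2 counts over the controls. SP6, a zinc finger factor of tooth and skin appendages in mice, had 7.55, 2.92 and 1.52 CPM in exposed libraries, against 0, 0 and 0.182 CPM in the controls. Both kept the same downward order over the exposed libraries.

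In the group of proteases, lectins and glycosylation, 3 of 5 genes were highest in exposed 2-2 and 2 in exposed 3-1. The gene lgals3bp.3, for a secreted galectin-binding glycoprotein, had the largest ratio of exposed 2-2 to exposed 3-3 of all 85 genes, 57.6. It had 59.4, 12.5 and 1.03 CPM in exposed 2-2, 3-1 and 3-3, against 0.242, 0 and 0 CPM in control 1-2, 2-2 and 3-1. The membrane serine protease tmprss13b had 21.5, 1.93 and 1.83 CPM in exposed libraries, against 0.207, 0.0262 and 0 CPM in the controls. Only exposed 2-2 was high for this gene. The glycosyltransferase c1galt1a, which extends mucin-type sugar chains, had 9.95, 1.88 and 1.24 CPM in exposed libraries, against 0.2997, 0.105 and 0 CPM in the controls. CLEC3B, the plasminogen-binding lectin tetranectin, had 2.14, 6.81 and 1.62 CPM in exposed libraries, against 0.231, 0.236 and 0 CPM in the controls. The metalloprotease mmp20a, whose mammalian counterpart acts in tooth enamel, had 2.21, 3.67 and 1.00 CPM in exposed libraries, against 0.2997, 0 and 0 CPM in the controls. These last 2 genes were highest in exposed 3-1, and mmp20a lay at both thresholds at once.

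Immune genes were low in general, and no single exposed library led them: 3 of 6 were highest in exposed 2-2, 2 in exposed 3-1 and 1 in exposed 3-3. The cytokine gene il19l, of the interleukin 10 family, had 4.39, 10.4 and 1.35 CPM in exposed 2-2, 3-1 and 3-3, against 0 counts in each control (at least 143-fold higher). It was highest in exposed 3-1. The gene ftr66, of the fish finTRIM family, had 7.31, 2.65 and 1.27 CPM in exposed libraries, against 0, 0.0919 and 0 CPM in the controls. The class I histocompatibility gene mhc1uma had 4.58, 2.01 and 2.36 CPM in exposed libraries, against 0.0692, 0 and 0 CPM in the controls. Both were highest in exposed 2-2. The class II genes mhc2d8.37b2 and mhc2d8.46a differed in their order. For mhc2d8.37b2 the exposed values were 3.98, 1.17 and 3.78 CPM, against 0, 0.262 and 0 CPM in the controls. For mhc2d8.46a they were 2.39, 3.75 and 1.82 CPM, against 0.219, 0 and 0 CPM in the controls. The chemokine-like gene cxl34b.11 had 1.57, 1.06 and 1.83 CPM in exposed libraries and 0 counts in each control, with exposed 3-3 the highest (at least 39.5-fold higher). Histocompatibility genes and finTRIMs have close copies in the zebrafish genome, and how the authors' counting shared reads among copies is not given, so the values of single copies are uncertain.

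Of the 6 genes of metabolism and intracellular proteins, 4 were highest in exposed 2-2, 1 in exposed 3-1 and 1 in exposed 3-3. FABP6, the bile acid carrier of the intestine, stood against the general order, with 4.88, 8.93 and 26.9 CPM in exposed 2-2, 3-1 and 3-3, against 0.127, 0 and 0 CPM in control 1-2, 2-2 and 3-1. It climbed toward exposed 3-3, and its ratio of exposed 2-2 to exposed 3-3, 0.181, was the smallest of the 85 genes. The gene noxa1, for an activator of NADPH oxidase, had 8.86, 2.59 and 1.42 CPM in exposed libraries, against 0.150, 0.157 and 0.259 CPM in the controls. The cytochrome P450 gene cyp2k17 had 3.69, 3.32 and 1.097 CPM in exposed libraries, against 0.173, 0 and 0 CPM in the controls. Both were lowest in exposed 3-3. The pteridine reductase gene qdprb.3 had 2.48, 1.59 and 2.11 CPM in exposed libraries, against 0, 0.0525 and 0 CPM in the controls. The kinase gene DAPK2, of the death-associated family, had 3.18, 1.23 and 1.12 CPM in exposed libraries, against 0, 0.236 and 0 CPM in the controls. The gene xirp1, for an actin-binding protein of striated muscle, had 1.61, 1.69 and 1.14 CPM in exposed libraries, against 0, 0.236 and 0 CPM in the controls. The last 3 stayed within a few CPM in every exposed testis.

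**Figure D2:**
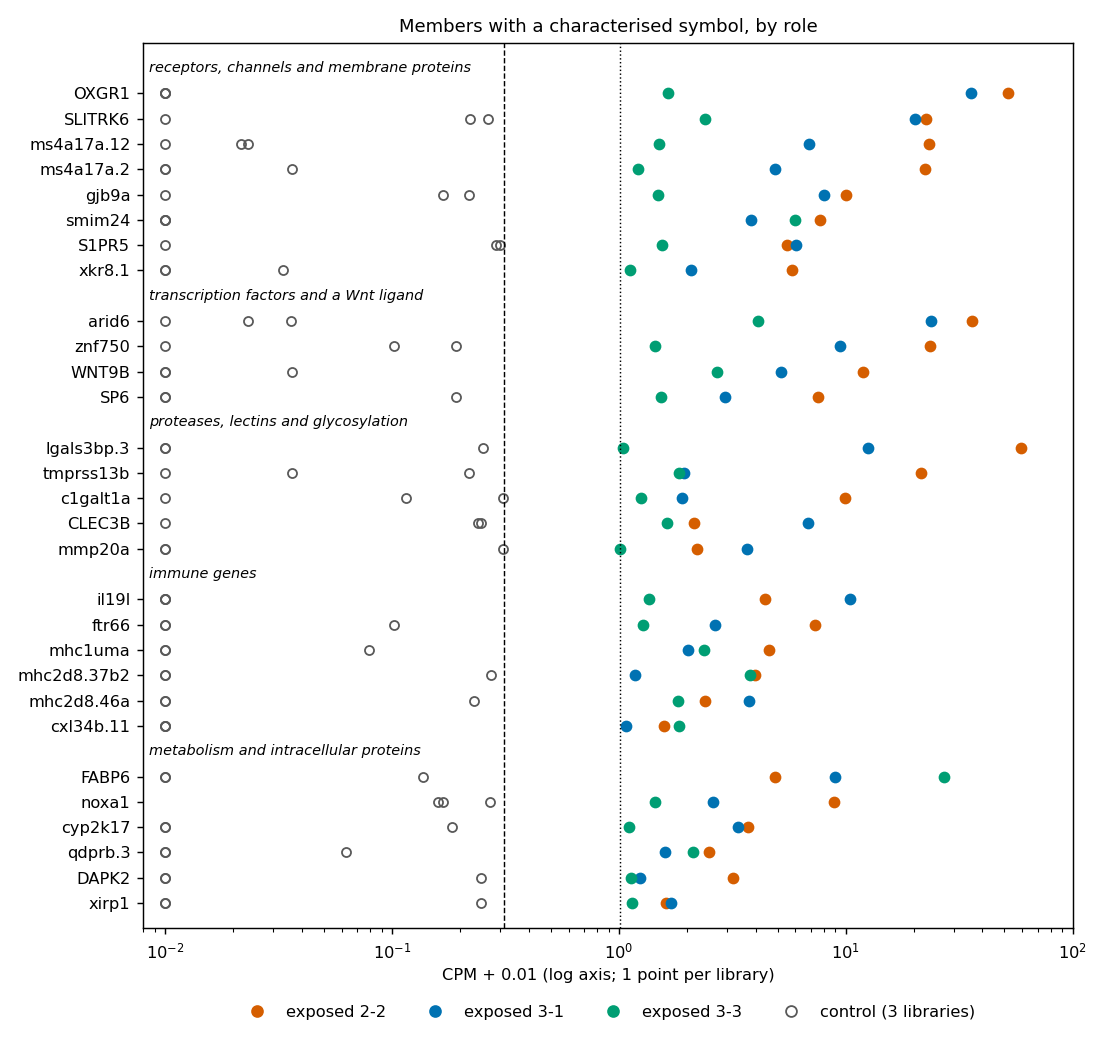
Level of the 29 characterised genes by role, as CPM + 0.01 on a log axis, with 1 point per library; filled points are the exposed libraries 2-2, 3-1 and 3-3, open points the 3 controls, and dotted and dashed lines the thresholds of 1 and 0.3 CPM. Exposed 2-2 lies farthest right for 21 genes and exposed 3-3 only for FABP6 and cxl34b.11.

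The 43 genes with clone-based or provisional symbols were highest in exposed 2-2 in 26 cases, in exposed 3-1 in 5 and in exposed 3-3 in 12. No role is given for them here. Those with the highest means were led by exposed 2-2. The gene si:ch211-217k17.8 had 45.1, 24.5 and 1.54 CPM in exposed 2-2, 3-1 and 3-3, against 0.0461, 0.249 and 0 CPM in control 1-2, 2-2 and 3-1. The gene si:dkey-54h16.1, a long noncoding RNA in the RefSeq annotation of assembly GRCz12tu, had 52.1, 12.9 and 5.07 CPM in exposed libraries, against 0.277, 0 and 0 CPM in the controls. For ENSDARG00000103322, whose symbol is also clone-based, the exposed values were 47.6, 14.5 and 1.54 CPM, against 0 counts in each control (at least 563-fold higher). All 3 dropped in the order 2-2, 3-1, 3-3. Next was si:dkey-9i23.6, with 44.9, 15.0 and 2.04 CPM in exposed libraries, against 0.277, 0 and 0 CPM in the controls. After it came si:ch73-359m17.9, with 44.7, 8.83 and 4.51 CPM in exposed libraries, against 0, 0.289 and 0 CPM in the controls. The gene si:ch73-56d11.5 had 39.8, 13.5 and 2.52 CPM in exposed libraries and 0 counts in each control (at least 494.588-fold higher). They followed the same order. The last of the 10 highest means, si:ch1073-340i21.3, had 36.7, 7.97 and 5.64 CPM in exposed libraries, against 0.2997, 0 and 0 CPM in the controls.

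Among the 13 genes without a symbol, 6 were highest in exposed 2-2, 3 in exposed 3-1 and 4 in exposed 3-3. The highest mean was that of ENSDARG00000109240, with 1.61, 16.7 and 4.58 CPM in exposed 2-2, 3-1 and 3-3, against 0 counts in each control (at least 202-fold higher). It was carried by exposed 3-1. ENSDARG00000079681 followed, with 5.65, 2.12 and 11.9 CPM in exposed libraries, against 0.0692, 0 and 0.0259 CPM in the controls. It was highest in exposed 3-3. A RefSeq entry of assembly GRCz12tu was matched by symbol for 52 of the 85 genes, 49 of them protein coding and 3 long noncoding.

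Of the 85 genes, 52 could be placed in the gene order of GRCz12tu. Among them 7 pairs had at most 8 genes between them, and in all 7 both genes had the same highest exposed library. Over all genes above 1 CPM in every exposed library that could be placed, 38.2% of 12950 neighbouring pairs with at most 9 genes between them did. The genes zgc:171750, zgc:171474 and si:ch211-146l10.8 formed a run that was highest in exposed 3-3. Their exposed values in 2-2, 3-1 and 3-3 were 6.38, 4.22 and 15.1 CPM for zgc:171750, which had 0 counts in each control (at least 227.939-fold higher). For zgc:171474 they were 7.71, 4.76 and 17.8 CPM, against 0.184, 0 and 0 CPM in the controls. For si:ch211-146l10.8 they were 9.64, 5.33 and 20.4 CPM, against 0.0461, 0.0525 and 0 CPM in the controls. The 3 genes thus kept nearly the same proportions over the exposed libraries. The genes ms4a17a.2, ms4a17a.12 and si:ch73-56d11.5 formed another run, highest in exposed 2-2. The pairs were sought after the values were seen, and neighbouring copies of a gene may share reads, so they are not independent of each other. The genes zgc:171474 and ms4a17a.12 are each counted in more than 1 pair. The background is also not matched: 62.4% of the 85 genes were highest in exposed 2-2, against 30.6% of all genes above 1 CPM in every exposed library.

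The thresholds lay within a continuous range of values. Just inside the control threshold lay c1galt1a, si:ch1073-340i21.3 and mmp20a, each with 0.2997 CPM in control 1-2. Just outside it lay si:dkey-162h11.3, si:ch211-155m12.1 and ENSDARG00000100923, each with 0.315 CPM in control 2-2. On the exposed side, si:dkey-261j11.2 and mmp20a had 1.00 CPM and ENSDARG00000096317 had 1.01 CPM in exposed 3-3. Those just outside were si:dkey-13e3.1 with 0.992 CPM and CCR6, a chemokine receptor, with 0.972 CPM in exposed 3-3, and SLC16A5 with 0.961 CPM in exposed 2-2. The lowest exposed value was under 2 CPM for 59 of the 85 genes and above 5 CPM for 4.

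Genes near absent from controls were more often present in 1 or 2 exposed testes than in all 3. Of 6831 genes under 0.3 CPM in every control, 638 were above 1 CPM in at least 1 exposed library: 395 in 1 library, 153 in 2 and 90 in all 3. By library, 329 were above 1 CPM in exposed 2-2, 347 in exposed 3-1 and 295 in exposed 3-3. The pair 2-2 and 3-1 alone shared 90 of the genes present in 2 libraries, the pair 3-1 and 3-3 shared 36, and the pair 2-2 and 3-3 shared 27. In the other direction, of 5567 genes under 0.3 CPM in every exposed library, 106 were above 1 CPM in at least 1 control: 87 in 1 library, 16 in 2 and 3 in all 3. The 3 genes (0.00923% of the table) were ENSDARG00000076766, si:ch211-122a17.5 and si:ch211-113a14.25. That number was 9, 9 and 19 without exposed 2-2, 3-1 and 3-3, and 9, 11 and 5 without control 1-2, 2-2 and 3-1.

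**Figure D3:**
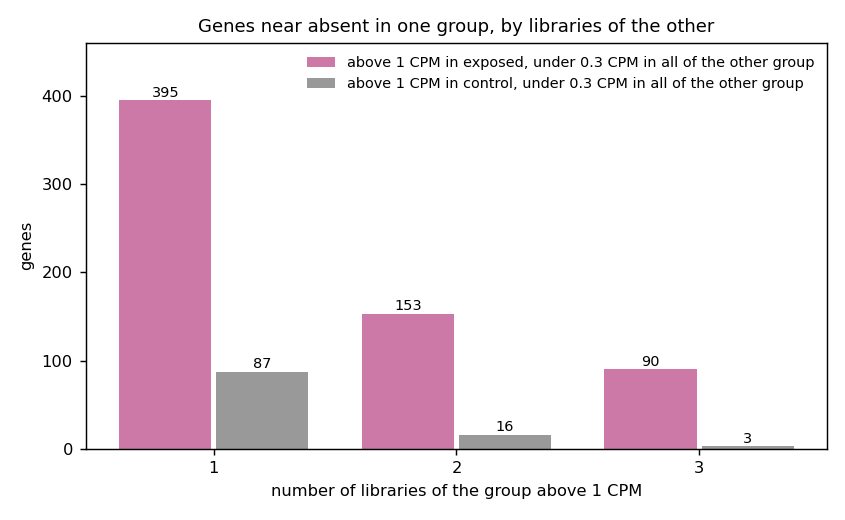
Number of genes above 1 CPM in exactly 1, 2 or 3 libraries of a group and under 0.3 CPM in every library of the other group; left bars are genes present in exposed libraries (395, 153 and 90), right bars genes present in controls (87, 16 and 3). The 90 genes are counted before the 5 were left out by name.

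By their sum, epidermis markers fell in the order 2-2, 3-1, 3-3 over the exposed libraries, and those of most other tissues did not. Lists of 15 cell types and tissues, 206 symbols in all, were set beside the 85 genes, and FABP6 of the intestine list was the only gene in both. The epidermis list, without krt symbols, held 37 genes, among them the cytokeratin genes cyt1 and cyt1l. It summed to 9250, 4776 and 1694 CPM in exposed 2-2, 3-1 and 3-3, against 1162, 1927 and 1050 CPM in control 1-2, 2-2 and 3-1. Exposed 2-2 was highest and exposed 3-3 lowest among the exposed testes. ANXA1, an annexin and the most abundant gene of the list, had 378 CPM in exposed 3-3, against 265, 1088 and 401 CPM in the controls. Without it, a setting added after the values were seen, the sums were 7790, 3126 and 1315 CPM in exposed libraries, against 897, 839 and 649 CPM in the controls. With ANXA1 the groups overlapped through control 2-2, and without it they did not. In exposed 3-3, 24 of the 37 genes were above every control. So were 11 of 13 intestine, 11 of 13 striated muscle and 13 of 20 kidney genes of the other lists. For liver and germ cells it was 1 of 13 and 0 of 10. The share over all genes was not taken. The median ratio of exposed 2-2 to exposed 3-3 was 5.58 over the 34 genes of the epidermis list above 1 CPM in every exposed library. In the list, 36 of 37 genes had a log2 fold change above 0 (median 3.24), against 13599 of 26108 genes tested (median 0.04). At an unadjusted p under 0.05 edgeR had 25 of the 37 higher, against 9.68% of all genes tested, and 0 passed when adjusted. DESeq2 called 24 higher, against 5.35% of all genes tested. Other lists shifted too. In the intestine list, 13 of 13 genes had a log2 fold change above 0. At an unadjusted p under 0.05 edgeR had 6 higher, and DESeq2 called 5 higher. In the kidney list these numbers were 17 of 20, 7 and 5. In the germ cell list 0 of 9 genes tested were above 0. At an unadjusted p under 0.05 edgeR had 7 lower, and DESeq2 called 3 lower. ELF3, a transcription factor of epithelia named after its values were seen, had 587, 282 and 39.1 CPM in exposed libraries, against 2.58, 0.656 and 4.15 CPM in the controls. No gene of the epidermis list was at 0 in all libraries or under 0.3 CPM in all controls. The part of epidermal RNA in the levels of the 85 genes was not tested.

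Over the exposed libraries, with all genes of each list, the sums of mucous cell, kidney, cartilage and bone, and Sertoli and Leydig cell markers had the same order as those of epidermis. The other lists had other orders. Sums for ionocytes, the ion-transporting cells of skin and gill, were 1226, 460 and 557 CPM in exposed 2-2, 3-1 and 3-3, against 475, 534 and 353 CPM in control 1-2, 2-2 and 3-1. Mucous cell markers summed to 255, 171 and 133 CPM in exposed libraries, against 97.8, 106 and 101 CPM in the controls. Kidney markers summed to 1326, 1009 and 694 CPM in exposed libraries, against 681, 1046 and 467 CPM in the controls. These 3 lists were highest in exposed 2-2, with overlap between the groups for ionocytes and kidney and none for mucous cells. Without their most abundant gene, GALNT7, mucous cell markers were highest in exposed 3-1, at 82.8, 108 and 72.0003 CPM in exposed libraries, against 40.3, 40.9 and 56.5 CPM in the controls. Kidney markers without theirs, podxl, summed to 803, 247 and 359 CPM in exposed libraries, against 280, 265 and 205 CPM in the controls. Exposed 3-1 was then the lowest exposed library for kidney. Ionocyte markers without their most abundant gene, ATP1B1 (ENSDARG00000013144), summed to 578, 207 and 255 CPM in exposed libraries, against 145, 217 and 129 CPM in the controls. Intestine markers summed to 376, 187 and 238 CPM in exposed libraries, against 70.8, 21.0 and 136 CPM in the controls. The largest part of the intestine sum in exposed 2-2 came from CDH17, which is also in the kidney list. CDH17 had 217, 3.94 and 17.8 CPM in exposed 2-2, 3-1 and 3-3. The lead of exposed 2-2 in the intestine sum thus rests on CDH17 and would not hold without it. Exact sums without this gene are not given. Liver markers were uneven among controls, at 1620, 7817 and 2512 CPM in exposed libraries, against 1480, 930.0 and 19168 CPM in the controls. Neutrophil and macrophage markers summed to 197, 166 and 507 CPM in exposed libraries, against 141, 125 and 347 CPM in the controls, and were highest in exposed 3-3. The pancreas list was highest in exposed 3-1, with 481, 2908 and 1128 CPM in exposed libraries, against 1548, 934 and 216 CPM in the controls. Markers of cartilage and bone summed to 395, 282 and 231 CPM in exposed libraries, against 196, 204 and 156 CPM in the controls. Those of striated muscle summed to 61.8, 49.6 and 114 CPM in exposed libraries, against 63.2, 56.5 and 34.8 CPM in the controls. Cartilage and bone was highest in exposed 2-2, with no overlap between the groups unless its most abundant gene, CTSK, was left out, and muscle was highest in exposed 3-3 with overlap. Neurons and glia had 53.8, 116 and 124 CPM in exposed libraries, against 88.3, 126 and 88.2 CPM in the controls. Pigment cells had 52.6, 79.5 and 71.2 CPM in exposed libraries, against 52.5, 58.5 and 61.2 CPM in the controls.

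Genes highest in exposed 3-3 were set beside egg genes, since zona pellucida symbols, which encode the egg coat, had been left out by name. The 18 genes with zp2 or zp3 symbols summed to 128, 101 and 238 CPM in exposed 2-2, 3-1 and 3-3, against 68.0, 88.4 and 131 CPM in control 1-2, 2-2 and 3-1. Among the exposed testes, 17 of the 18 were highest in 3-3, and the sums of the groups overlapped through control 3-1. The largest part of each control sum came from zp3d.2, the most abundant of the 18. It had 35.8, 21.7 and 36.4 CPM in exposed libraries, against 39.4, 51.5 and 90.7 CPM in the controls. The overlap thus leans on this gene, and sums without it were not taken. The oocyte list without zona pellucida genes summed to 85.9, 87.3 and 149 CPM in exposed libraries, against 132, 139 and 136 CPM in the controls. Its most abundant gene, org, had 50.9, 57.5 and 80.2 CPM in exposed libraries, against 84.3, 117 and 107 CPM in the controls. Without org the list summed to 35.0, 29.8 and 68.4 CPM in exposed libraries, against 47.4, 22.2 and 28.3 CPM in the controls. Exposed 3-3 was the highest exposed testis with and without org, and above every control in both cases by the sum. By gene, 6 of the 9 in the list were above every control in exposed 3-3, and org, figla and buc were not. At an unadjusted p under 0.05 edgeR had 1 of the 9 higher in exposed testes and 2 lower. Germ cell markers summed to 3256, 2734 and 4881 CPM in exposed libraries, against 6122, 6495 and 5493 CPM in the controls, and Sertoli and Leydig cell markers to 3561, 3249 and 2921 CPM, against 5519, 6641 and 3781 CPM. By these sums, exposed 3-3 was the exposed testis nearest to the controls in germ cell and epidermal markers. In Sertoli and Leydig cell markers it was the farthest from them. Whether any of these tissues was the source of the 85 transcripts was not tested.

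**Figure D4:**
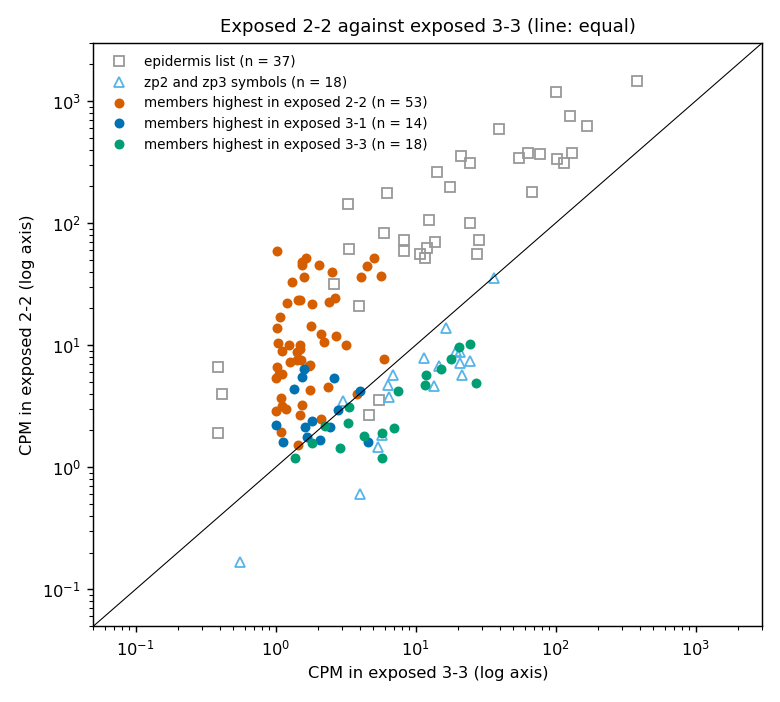
Level in exposed 2-2 (y axis) against exposed 3-3 (x axis), both as CPM on log axes, with a line of equality; filled points are the 85 genes coloured by the exposed library in which they were highest, grey squares the 37 epidermis genes and blue triangles the 18 zp2 and zp3 genes. Most epidermis genes and all 53 genes highest in exposed 2-2 lie above the line, while 17 of 18 zona pellucida genes were highest in exposed 3-3.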

How the data were processed

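RNA of 3 exposed and 3 control testes was sequenced after poly(A) enrichment, per the labels' protocols. The deposited values are raw counts per Ensembl gene in whole numbers, with 1 column for each animal. Reads were aligned with STAR to GRCz11, per the submitters' processing notes. The STAR version, the tool used for counting, the annotation, strand and how mates were treated were not given in the sources used here. Groups came from the titles, and 0 columns were left out. Symbols came from a reference table that covered 29201 of 32520 identifiers, and are printed as that table gives them.

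CPM is the count divided by the column total times 1000000. The genes were chosen by thresholds on CPM, and those genes, the roles and the 15 marker lists were chosen with earlier results of these data known. A listed symbol that was absent was matched by a synonym or by its name without a final a or b. Some lists thus took more than 1 copy of a gene, such as ATP1B1 and SLC4A1 for ionocytes, and pax2a of the kidney list was matched to PAX5. Named genes are the 10 with the highest mean exposed CPM, up to 6 per role by the same order, the first 5 with 0 control counts, all transcription factors and the genes nearest to each threshold. For genes without symbols the first 2 are named. A fold against controls at 0 is a bound, with 3 counts per control library in place of 0. With 1 to 3 control counts, the ratio of summed counts has a 95% exact binomial interval. Intervals and floors cover counting error only, leave out the spread among animals, and are no test of a difference.

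The whole table was tested with edgeR 4.0.16 (filterByExpr, TMM, glmQLFit robust, glmQLFTest, two-sided, Benjamini-Hochberg at 0.05), with DESeq2 1.42.0 as an alternative, in R 4.3.3. The procedure was tested on simulated data. Other steps used Python 3.11.15, pandas 2.3.3, numpy 2.4.6, scipy 1.17.1 and matplotlib 3.10.9. Other thresholds, scalings, filters, the replicate number as a block and the loss of each library were tried. Promoter motifs and proteins had been planned and were not analysed here. RefSeq assembly GRCz12tu served for names, biotypes and gene order, and no coordinates were taken from it.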

Additional observations from a re-analysis of the deposited data

How the results depend on the processing

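The number of genes depended on the thresholds. Against 85 genes, a control threshold of 0.1 CPM gave 42 and one of 0.5 CPM gave 155, and an exposed threshold of 0.5 CPM gave 172 and one of 2 CPM gave 26. Scaling by TMM or by DESeq2 size factors gave 76 genes, of which 74 were among the 85, and thresholds on raw counts gave 101, of which 77 were. Leaving out 1 library, which can only keep or raise the number, gave between 112 and 174 genes. In the other direction, against 3 genes, control thresholds of 0.1 and 0.5 CPM applied to exposed libraries gave 0 and 7, thresholds of 0.5 and 2 CPM for presence gave 19 and 0, and leaving out 1 library gave between 5 and 19. The share of genes highest in exposed 2-2, 62.4%, was 50% with an exposed threshold of 2 CPM and between 55.2% and 59.5% under the other settings run. For edgeR's 0 calls over all genes, DESeq2 gave 1756, relative log expression 1, and no filter on low counts 12. Leaving out 1 library gave between 0 and 396, the most without exposed 3-3; the cause was not tested. With the replicate number as a block (replicate block), edgeR called 5 genes. Libraries were not taken as pairs, because the labels do not say what a replicate number marks. Deviations of exposed and control libraries of the same number had correlations across genes of -0.0063, 0.019 and -0.034. With so few libraries these values cannot show whether the libraries are paired. Exposed 3-1 and 3-3 share a number; whether they are related was not examined, and they were treated as independent. Depth limits the control values: 3 counts are 0.0346 to 0.0394 CPM in a control.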

Other observations

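Some genes near absent in controls were strong in 2 exposed testes and missed the threshold in the third; those given here have the highest means in their pair of libraries. The gene plekhs1.2 had 62.4, 32.0 and 0.886 CPM in exposed 2-2, 3-1 and 3-3, against 0.207, 0 and 0 CPM in control 1-2, 2-2 and 3-1. The histocompatibility gene mhc1lfa had 54.3, 8.98 and 0.193 CPM in exposed libraries, against 0.2997, 0 and 0 CPM in the controls. Both were missed through exposed 3-3. A different order was seen for scpp7, of the secretory calcium-binding phosphoprotein family, with 0.536, 6.79 and 21.8 CPM in exposed libraries and 0 counts in each control. The fatty acid-binding gene fabp1b.2 had 0.702, 8.89 and 10.5 CPM in exposed libraries, against 0.115, 0 and 0 CPM in the controls. Both were missed through exposed 2-2.

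Families of some of the 85 genes were looked at as a whole, after the values were seen. Their sums include genes of the 85, which are 2 of 14 for ms4a17a and 3 of 7 for the array below. The choice of those genes thus sets part of each difference between the groups. Of 14 ms4a17a genes, 10 were highest in exposed 2-2, 3 in exposed 3-1 and 1 in exposed 3-3 among the exposed testes. They summed to 226, 125 and 65.9 CPM in exposed 2-2, 3-1 and 3-3, against 35.6, 36.3 and 117 CPM in control 1-2, 2-2 and 3-1. The groups overlapped for this sum, through control 3-1. All 7 genes of the array around si:ch211-146l10.8 were highest in exposed 3-3, and they summed to 57.6, 39.1 and 129 CPM in exposed libraries, against 1.29, 1.65 and 0.934 CPM in the controls. Among the other families, the groups overlapped for the sums of si:ch73-359m17 and lgals3bp. They did not for those of xkr8, mhc2d8, qdprb, si:ch73-343g19 and si:dkeyp-98a7. How reads of near-identical copies were shared within families is not given.

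The genes whose profile over the 6 libraries was nearest to that of the gene with a symbol and the highest mean, for each exposed library, were sought among 18950 genes outside the 85, by the distance between centred values of log2(CPM + 0.1). Nearest to OXGR1 was si:ch211-226h7.5, with 413, 126 and 9.33 CPM in exposed libraries, against 0.277, 0.394 and 0.597 CPM in the controls. Nearest to si:dkeyp-82b4.2, highest in exposed 3-1, was wu:fk65c09, with 13.7, 208 and 26.7 CPM in exposed libraries, against 1.90, 1.78 and 2.43 CPM in the controls. Nearest to FABP6 was the egg coat gene zp2.2, at a distance of 1.27, with 5.67, 5.43 and 21.5 CPM in exposed libraries, against 0.346, 0 and 0 CPM in the controls. After it came zp3.2 and zp3a.1 at 1.68 and 1.69, and FABP2 of the intestine list at 2.03, against a median distance of 8.01. The distance includes the difference between the groups by which the 85 genes were chosen, so a near gene must share it.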
